A study of Panagrellus redivivus with 189 samples.

Results

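The features described here are 80 rows of a blastomere count table of the nematode *Panagrellus redivivus* that were high at 6-10 cells, low at 1-3 cells and low again in the gastrula. They are 80 of 1572 complete rows, or of 1566 once 6 rows that take most of the counts in some libraries are set aside. Membership was set on measured values. Counts were summed over the libraries of 3 stage ranges and scaled to counts per 1000000 (CPM) without the 6 dominant rows. A member had at least 200 CPM at 6-10 cells, at least 4 times its 1-3 cell level, and a gastrula level at least 3 times lower than its 6-10 cell level. The levels at 1-3 cells, at 6-10 cells of the higher number series and in the gastrula therefore chose the members, and are given below as description with no test. The embryos of 8, 12, 14 and 20 cells that the rule did not use carry the timing.

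An early animal embryo runs on transcripts that the mother placed in the egg, and hands control to its own genome over the first cleavages while maternal transcripts are cleared. In *Caenorhabditis elegans*, the nematode in which this is best known, the first division gives the founder cell AB and its smaller sister P1, and embryonic transcription starts early in the somatic lineages while the germline precursor, named P4 at the end of its series of divisions, is held silent. Some early embryonic genes of that worm are transcribed in brief pulses, in particular lineages, and their transcripts are gone before gastrulation ends. The rows of this table carry no gene name, so no function or sequence can be given for a member, and a row is named here by the letter F and its number.

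The study separated *P. redivivus* embryos by hand after removing the egg shell and profiled each blastomere with CEL-Seq2, a 3′-end RNA sequencing method that barcodes single cells. The labels give a developmental stage and an embryo for each library, 39 in a lower and 150 in a higher series of sample numbers, and name no strain, treatment or genotype. Libraries were summed to 20 embryos, since blastomeres of 1 embryo are not replicates. The lower number series (sample numbers 1 to 39) holds 5 embryos of 1-3 cells, 8-cell embryo 1, 12-cell embryo 1 and 14-cell embryo 1. The higher series (201 to 350) holds 8 embryos of 6-10 cells, 12-cell embryo 2, the 20-cell embryo, the early gastrula and the late gastrula. All 1-3 cell libraries are in the lower series and all 6-10 cell and gastrula libraries of the rule in the higher one, so stage and series cannot be told apart in the rise, whereas the loss lies within the higher series. Embryo sums outside the dominant rows ran from 4992 to 380620 counts, and the dominant rows took 65.2% to 78.9% of the counts in the 8-, 12- and 14-cell embryos of the lower series, against 2.27% to 8.50% in the higher series. Many sums cover part of an embryo. In such sums fewer cells with a transcript and less of it per cell cannot be told apart.

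Some libraries stand apart and are given with and without below. In 8-cell embryo 1, sample numbers 11 to 14 had 0.721% of their 2497 counts from members, and sample numbers 23 to 25 had 4.67% of 9042. Cell r4 of 12-cell embryo 2 had 2.63% from members, against 20.2% to 31.4% in the other 8 libraries of that embryo with at least 1000 counts. The same library had 37.4% of its counts from features that are high at 1-3 cells (200 CPM or more) and at least 4 times lower at 6-10 cells, against 3.59% to 8.78% in the other 8. Cell r8 of the 20-cell embryo had 23.5% from members, against 6.82% to 12.7% in the other 12 deep libraries of that embryo.

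Together the 80 members took a trace of the counts at first, a large share during cleavage and a small share again in the gastrula. By the values that chose them, they held 0.320% of all counts outside the dominant rows at 1-3 cells, 22.1% at 6-10 cells and 2.23% in the gastrula. In the embryos that the rule did not use, their share was 3.81% in 8-cell embryo 1, 17.4% in 12-cell embryo 1, 19.8% in 14-cell embryo 1, 26.3% in 12-cell embryo 2 and, at 20 cells, 9.68%. The 12- and 14-cell embryos of both series thus lie at or near the range of the 8 higher-series embryos of 6-10 cells, 17.8% to 29.3% (mean 22.5% ± 4.75, SD), and the 20-cell embryo lies below all 8. The 95% Wilson interval of the 20-cell share was 9.53% to 9.84%, and it covers counting error only, as do all intervals given here.

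**Figure D1:**
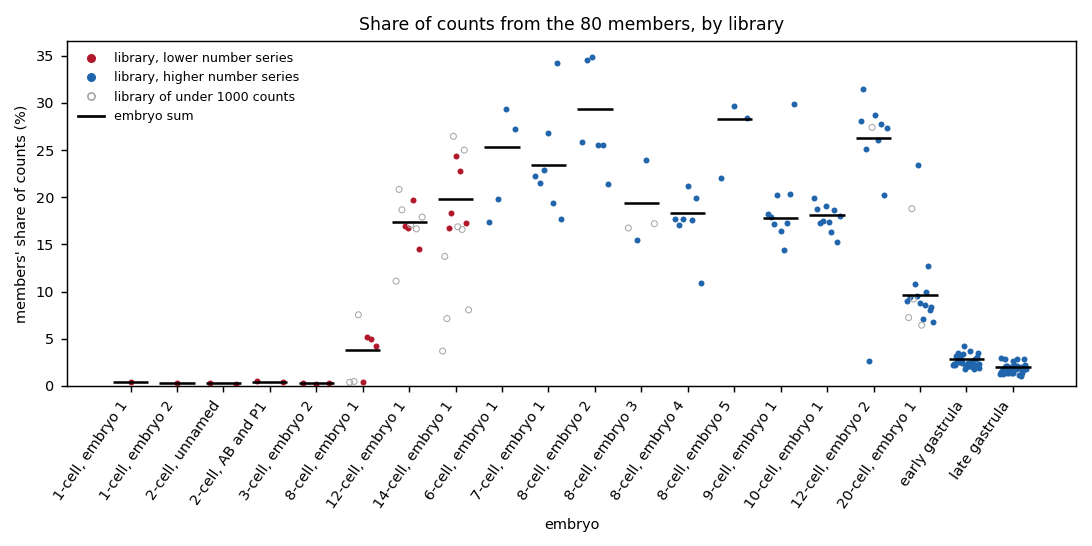
Members' share of the counts outside the dominant rows (vertical axis, %) in each blastomere library, grouped by embryo (horizontal axis), with points coloured by number series, open grey circles for libraries of under 1000 counts and black lines for embryo sums. The sums stand at 0.274% to 0.414% in the 1-3 cell embryos, at 26.3% in 12-cell embryo 2, 9.68% in the 20-cell embryo, 2.89% in the early gastrula and 1.97% in the late gastrula.

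The members' 6-10 cell levels ran from 210.1 to 18309 CPM with a median of 1953 CPM. The 10 highest held 39.2% of the members' counts at that stage and the 40 highest 84.1%, so the share above is mainly that of a part of the set. No count at all was seen for 49 of the 80 at 1-3 cells, where 3 counts in the 55990 of that stage correspond to 53.6 CPM. F208 and F614 had no count in the gastrula. Just inside the gastrula limit were F580 and F456, whose 6-10 cell levels were 3.01 and 3.04 times their gastrula levels. Just outside were F984 and F460 at 2.97 and 2.92 times. At the 1-3 cell limit, F415 was inside at 4.18 times its 1-3 cell level and F1122 outside at 3.11 times.

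F1269 was the highest member. It had 27452, 19769, 34526, 17228, 10280 and 37758 CPM in the 6-, 7- and 8-cell embryos of the higher series, 10038 CPM in the 9-cell and 7251 CPM in the 10-cell embryo. Among the embryos outside the rule it had 5893 CPM in 8-cell embryo 1, 10912 in 12-cell embryo 1, 20379 in 14-cell embryo 1, 23297 in 12-cell embryo 2 and 4330 at 20 cells. Its level in the 20-cell embryo was thus below every other embryo from 6 cells on that precedes the gastrula. The early and late gastrula had 88.2 and 18.4 CPM of it.

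F539, F1153, F831 and F177 varied little across the 8 embryos of 6-10 cells, beside a median coefficient of variation of 51.3% over all members. F539 averaged 8615 ± 2023 CPM there, F1153 8159 ± 1649 CPM, F831 8592 ± 1585 CPM and F177 7431 ± 2081 CPM (SD, n = 8). They parted later. F1153 still had 7181 CPM in the 20-cell embryo, against 10095 ± 2044 CPM over the 3 embryos of 12-14 cells. F177 had 2413 CPM in the 20-cell embryo, against 11345 ± 2399 CPM at 12-14 cells, and the 20-cell embryo lay below each of the 3 for both rows. F831 reached 16834 CPM in 12-cell embryo 2, its highest value in any embryo, before 3871 CPM at 20 cells and 67.8 CPM in the early gastrula.

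F41 followed a steeper course within the higher series. It had 9404 CPM in the 6-cell, 10711 in the 7-cell, 6388 in the 9-cell and 4832 in the 10-cell embryo, 16834 in 12-cell embryo 2 and 2004 at 20 cells. In the lower series it had 4677 CPM in 12-cell embryo 1 and 5410 CPM in 14-cell embryo 1. F1121 and F1006 had 1982 and 3267 CPM in the 20-cell embryo, below the lowest of their 3 values at 12-14 cells, 3897 and 4120 CPM. F1459 was higher at 12-14 cells (8407 ± 1599 CPM, SD, n = 3) than over the 6-10 cell embryos (5722 ± 2008 CPM, SD, n = 8), a difference smaller than their summed spreads, and had 3023 CPM at 20 cells. F1534 ran from 1843 to 16556 CPM over the 8 embryos of 6-10 cells, the widest range among the 10 highest after F1269.

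The loss was spread over several steps of the higher series, and the pair of 12-cell embryos, of different series, differed in the members' levels. Within the higher series the median member stood at 100.4% of its 6-10 cell level in 12-cell embryo 2, 41.05% in the 20-cell embryo, 9.06% in the early gastrula and 7.22% in the late gastrula. The 351 other features of at least 200 CPM at 6-10 cells had medians of 84.4%, 109.5%, 89.3% and 95.6% at the same steps. The rule required a low gastrula level of members, so the contrast at the gastrula steps restates it. Only the 12- and 20-cell levels were not used by the rule. Without cell r4 the 12-cell median was 105.05%, and without cell r8 the 20-cell median was 39.4%. Over the 8 embryos of 6-10 cells the same median ran from 76.96% to 128.4% (SD 20.6), so 12-cell embryo 2 lies within that range and the 20-cell embryo below it. In the lower series the median member stood at 67.7% in 12-cell embryo 1, below that range, and at 84.3% in 14-cell embryo 1, within it. The same median was 5.74% in 8-cell embryo 1 of that series, so the value of 12-cell embryo 1 cannot be read as loss.

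The members differed in when they first fell 3-fold or more below the 6-10 cell level, as followed in the higher series alone. At 12-cell embryo 2 there were 5 such members, at the 20-cell embryo a further 27, at the early gastrula 42 and at the late gastrula 6. That the rest fell by the gastrula follows from the rule. In 12-cell embryo 2 the 5 are 6.25% of members, against 24 of the 351 non-members (6.84%), so members were not more often low there. At 20 cells 31 of the 80 members were that low (38.75%), against 16 of the 351 (4.56%). In the lower series 16 of the 80 members (20%) were that low in 12-cell embryo 1 and 16 (20%) in 14-cell embryo 1. Of the 351 non-members, 35 (9.97%) and 55 (15.7%) were. Most of these members had 3 counts or fewer there, where 3 counts are 334.0 and 270.5 CPM, so their levels rest on few counts. For some, such as F91 (111.3 CPM in 12-cell embryo 1, 448.9 CPM at 6-10 cells), the 3-fold limit lies below that floor and was not resolved. For others, such as F113 (222.7 CPM in 12-cell embryo 1, 2164 CPM at 6-10 cells), it lies above the floor. The order of steps was followed in the higher-series embryos only. The 5 that were low in 12-cell embryo 2 were F91, F113, F185, F614 and F1155. F1155 was back above that line at 20 cells, with 1235 CPM, against 276.8 CPM in 12-cell embryo 2. The 6 latest were F233, F415, F546, F580, F884 and F1331.

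Once in the gastrula, the levels moved little further as a set. Late gastrula levels were lower than early gastrula levels for 47 members and higher for 31. F539 had 183.9 CPM in the late and 847.7 CPM in the early gastrula, and F1006 had 68.3 and 508.6 CPM. F113 went the other way, with 299.5 CPM in the late and 20.3 CPM in the early gastrula. There is 1 embryo of each gastrula stage, so these differences have no replicate check.

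Members that were lower at 9-10 cells than at 6-8 cells also stood lower in the 20-cell embryo, as a percentage of their 6-10 cell level. The members were split by the ratio of their mean level in the 9- and 10-cell embryos to their mean level in the 6 higher-series embryos of 6-8 cells. The ratio was 0.5 or lower for 28 members, above 0.5 and under 1 for 22, and 1 or higher for 30. The medians of the 20-cell level were 18.6%, 41.7% and 71.4% of the 6-10 cell level in these 3 groups. Of the 28 in the first group, 20 had fallen 3-fold or more by the 20-cell embryo, 17 of them at 20 cells and 3 already in 12-cell embryo 2. Of the 30 in the last group, 5 had, 3 of them at 20 cells and 2 already in 12-cell embryo 2. The split uses the same embryos as the 6-10 cell level, so its link with these percentages is partly built in. In the 10-cell embryo the medians of the 3 groups were already 27.0%, 80.6% and 124.98%. The 20-cell values therefore do not show that the first group was lost earlier after that stage. This is a description, and the members were not tested as groups.

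The 12-cell embryos differed in the levels of these groups. For the 28 members of the first group the median was 40.2% of the 6-10 cell level in 12-cell embryo 1 and 33.9% in 14-cell embryo 1, but 99.2% in 12-cell embryo 2. Among the 6-8 cell embryos it was 205.6% in the 6-cell, 107.4% in the 7-cell, and 189.5%, 136.6%, 53.9% and 183.1% in 8-cell embryos 2 to 5. It was 44.6% in the 9-cell and 27.0% in the 10-cell embryo. On this measure 12-cell embryo 2 lies among the embryos of 6-8 cells and 12-cell embryo 1 beside those of 9 and 10 cells, and 8-cell embryo 4 also lies near the embryos of 9 and 10 cells. The 30 members of the last group varied less, from 51.9% in the 6-cell to 124.98% in the 10-cell embryo, with 84.8%, 100.4% and 81.4% in 12-cell embryo 1, 14-cell embryo 1 and 12-cell embryo 2. The groups were split on the 6-8 and 9-10 cell levels, so the wider span of the first group over those embryos is partly built in. Which number series an embryo belongs to cannot be told apart from this difference between the 12-cell embryos.

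**Figure D2:**
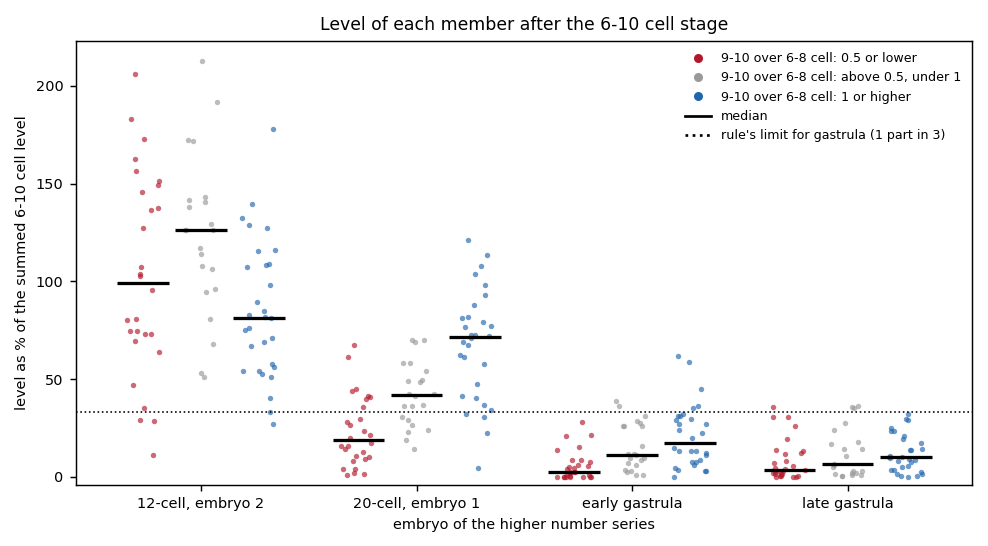
Level of each member as a percentage of its summed 6-10 cell level (vertical axis) in 12-cell embryo 2, the 20-cell embryo, the early gastrula and the late gastrula (horizontal axis), with points coloured by the ratio of the 9-10 cell to the 6-8 cell level, black lines for medians and a dotted line at the gastrula limit of the rule. In the 20-cell embryo the medians of the 3 groups are 18.6%, 41.7% and 71.4%.

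The 20-cell embryo was then tested against the 3 embryos of 12-14 cells, none of which the rule used. Of these 3, 12-cell embryo 1 and 14-cell embryo 1 are of the lower number series, while 12-cell embryo 2 and the 20-cell embryo are of the higher one. The fit was edgeR's quasi-likelihood test on all features and all 20 embryos, with Benjamini-Hochberg adjustment. All 80 members passed the filter on low counts. Of 604 features 1 was called at an adjusted p under 0.05, which is 0.166%, and it was no member. No member was called in either direction. Unadjusted, 15 members were lower and 0 higher at p under 0.05, of 66 features in all. DESeq2 called 10 of the 604 features, 9 of them lower (1.49%), and 7 of the 9 were members. Only the 12-14 cell group of the fit holds embryos of both number series. With number series as a term, the contrast is therefore that of the 20-cell embryo with 12-cell embryo 2 alone. The members' median log2 change was then -1.78, against -0.22 over all features. The 20-cell group is 1 embryo whose spread is taken from the other groups, and the p-values measure only the spread between these embryos.

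The sizes of these changes were as follows. The log2 change from 12-14 cells to 20 cells was negative for 73 of the 80 members, with a median of -1.39, against -0.01 over all 604 features. By CPM, 45 members were lower in the 20-cell embryo than in each of the 3 embryos of 12-14 cells and 4 were higher than in each. The ratio of the 20-cell to the mean 12-14 cell level had a median of 0.466 over members and 1.23 over the 351 non-members of at least 200 CPM. Leaving out cell r8 of the 20-cell embryo, a setting chosen after seeing the data, gave a median log2 change of -1.55 over members. Over all 605 features of that fit the median was -0.04. Leaving out the libraries with a digit in front of the cell name gave -1.34 over members and -0.13 over all features. Among these libraries, 3r17 held 42908 of the 139254 counts of the 20-cell embryo, with 6.82% from members.

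F283 had the lowest p of any member. It had 157.99 CPM in the 20-cell embryo, against 2004 CPM in 12-cell embryo 1, 5230 CPM in 14-cell embryo 1 and 2758 CPM in 12-cell embryo 2. All 3 earlier embryos lie above the 20-cell value and the log2 change was -4.50 ± 1.17 (SE; adjusted p = 0.102 by edgeR's quasi-likelihood test). The other 4 members with the lowest 20-cell to 12-14 cell ratio were F113, F1168, F1170 and F1437. F1437 had 107.7 CPM in the 20-cell embryo, against 1559, 541.0 and 2768 CPM in 12-cell embryo 1, 14-cell embryo 1 and 12-cell embryo 2. F1170 had 50.3 CPM at 20 cells, against 334.0, 1262 and 968.9 CPM in the same 3. F1168 and F113 had 1 and 3 counts in the 20-cell embryo, which are 7.18 CPM (95% exact Poisson interval 0.182 to 40.0) and 21.5 CPM (4.44 to 62.96). Their means at 12-14 cells were 389.9 and 343.8 CPM.

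The 5 members with the highest ratio were F541, F1155, F1331, F456 and F614. F541 had 1192 CPM in the 20-cell embryo, against 0, 450.9 and 1288 CPM in 12-cell embryo 1, 14-cell embryo 1 and 12-cell embryo 2, so its 20-cell value lies inside their range. F1331 had 2140 CPM at 20 cells, above 1002, 2074 and 1054 CPM in those 3. It still had 1282 CPM in the early gastrula and reached 402.0 CPM in the late one. F614 had 193.9 CPM at 20 cells, against 0, 270.5 and 138.4 CPM. F1155 had 1235 CPM at 20 cells, against 779.4, 1262 and 276.8 CPM, and F456 had 1702 CPM, against 890.8, 1353 and 1246 CPM. Adjusted p-values of these 5 were between 0.800 and 0.974 (edgeR's quasi-likelihood test), and no difference from 12-14 cells was detectable for them.

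Within the lower number series the rise could be followed from 8 to 14 cells in embryos that the rule did not use. In 8-cell embryo 1 the median member stood at 5.74% of its 6-10 cell level and 28 members had no count, where 3 counts would be 260.0 CPM. The medians given above for 12-cell embryo 1 and 14-cell embryo 1 are higher, and 5 members were without a count in each. This rise is shared with the features that meet the same limits at 1-3 and 6-10 cells but are not low in the gastrula, whose medians were 85.5% in 12-cell embryo 1 and 92.3% in 14-cell embryo 1, against 0% in 8-cell embryo 1. Levels in both of these embryos were above that of 8-cell embryo 1 for 63 members and below it for 8. The 8-cell embryos of the 2 series differ widely here, 3.81% of counts from members in 8-cell embryo 1 against 18.3% to 29.3% in 8-cell embryos 2 to 5, and number series and embryo cannot be told apart. Features high at 1-3 cells held 51.6% of the counts of sample numbers 23 to 25 and 57.9% of those of sample numbers 11 to 14.

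12-cell embryo 1 and 14-cell embryo 1 were tested against 8-cell embryo 1. Of the 53 members that passed the filter on low counts, edgeR's quasi-likelihood test called 31 higher and 2 lower at an adjusted p under 0.05. Over all 331 features tested it called 33.2% higher and 28.4% lower. None of the 31 reached the filter's level (1160 CPM) in 8-cell embryo 1, so each had to be high in another embryo to be tested at all, and the count and the median below describe the calls without supporting a rise of the members. With no filter, 43 of 79 members were called higher, against 18.0% of all 816 features. Those features include every row with a count, while members were chosen for a high 6-10 cell level. This difference too does not support a rise of the members. The 27 members not tested had a median 6-10 cell level of 548.5 CPM and 18 of them had no count in 8-cell embryo 1. The median log2 change was 3.44 over the 53 members and 0.59 over all features. With relative log expression scaling the median over all features was 1.73, with 73.8% of the calls higher in place of 53.9%, and 42 members higher and 2 lower, against 42.6% and 15.1% of all features.

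Among the 31 members called higher, 10 had more than 3 counts in 8-cell embryo 1, and their log2 changes ran from 2.45 (F1133) to 4.59 (F539). These rows too were tested only because they are high in another embryo, so they are given as values only. F539 had 7460 and 9919 CPM in 12-cell embryo 1 and 14-cell embryo 1, against 346.7 CPM in 8-cell embryo 1 (log2 change 4.59 ± 0.93, SE). F1153 had 12359 and 8386 CPM in the same pair, against 693.3 CPM (log2 change 3.85 ± 0.86). F884 had 7460 and 6583 CPM, against 346.7 CPM (log2 change 4.27 ± 0.93). Both later embryos lay above 8-cell embryo 1 for each of these rows. The others of the 10 were F65, F283, F415, F827, F831, F953 and F1133.

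A further 11 members called higher had 1 to 3 counts in 8-cell embryo 1, F41, F58, F177, F353, F612, F944, F1121, F1331, F1335, F1459 and F1534. F177 had 2 counts there (173.3 CPM), and 11580 and 8837 CPM in 12-cell embryo 1 and 14-cell embryo 1. The remaining 10, likewise given as values only, had no count in 8-cell embryo 1, F40, F42, F43, F208, F233, F461, F836, F889, F1291 and F1334. Set against 3 counts in that embryo, they were at least 3.92-fold (F1291) to at least 13.3-fold (F889) higher. F1269 and F1006, the members with the most counts in 8-cell embryo 1 among the 10 highest, were not called (log2 change 1.39 ± 0.72 with adjusted p = 0.0811, and 1.42 ± 0.74 with adjusted p = 0.0831, edgeR).

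The lone 8-cell embryo is taken to vary like the other groups of the fit, 1-3 and 12-14 cells, which also pool stages. Restricting the sums to libraries of at least 2000 counts left 1 library of 14-cell embryo 1, none of 12-cell embryo 1 and 2 of 8-cell embryo 1, and gave 3 members higher and 1 lower of 19 tested. With that minimum fewer features were higher than lower, 8.79% and 18.4% of all tested. Members called higher and lower were 21 and 2 of 49 tested without 12-cell embryo 1, against 21.1% and 20.2% of all features tested. They were 21 and 2 of 41 without 14-cell embryo 1, against 22.3% and 17.2%. Without sample numbers 11 to 14 they were 32 and 2 of 53, against 33.8% and 25.1%, and without sample numbers 23 to 25 they were 38 and 0 of 46, against 33.9% and 15.7%. In each of these settings features were called in both directions.

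F113 and F614 were the 2 members called lower. F113 had 2 counts in 12-cell embryo 1 and 2 in 14-cell embryo 1, against 56 counts (4853 CPM) in 8-cell embryo 1, with an adjusted p of 7.94e-06 by edgeR. F614 had 0 and 3 counts in those 2, against 49 counts (4246 CPM), with an adjusted p of 1.48e-05 by edgeR. These values of the later pair are at or under 3 counts, 334.0 CPM in 12-cell embryo 1 and 270.5 CPM in 14-cell embryo 1, so no size of change is given. DESeq2 called neither, and without sample numbers 23 to 25 neither was called. Nearly all of their counts in 8-cell embryo 1 came from these 3 libraries, in which F113 had 6194, 6929 and 5526 CPM and F614 had 5068, 5835 and 5305 CPM. Sample numbers 11 to 14 held 1 count of F113 and none of F614.

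**Figure D3:**
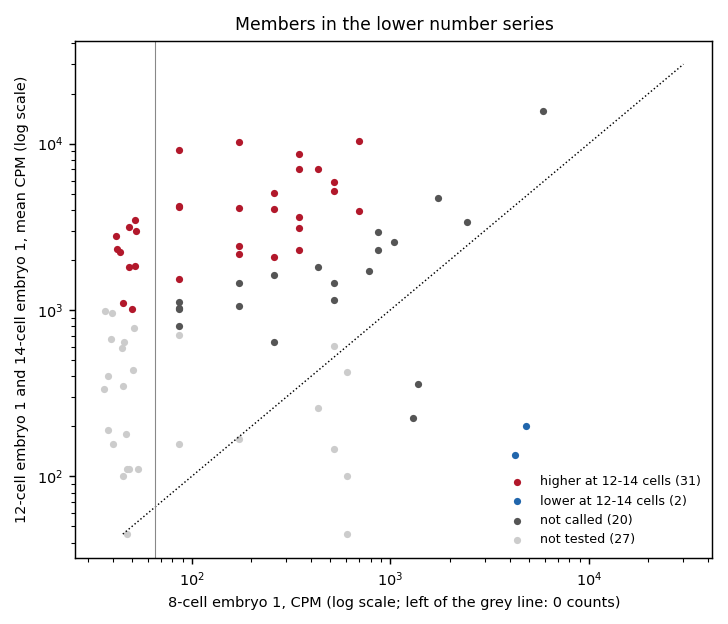
Mean level of each member in 12-cell embryo 1 and 14-cell embryo 1 (vertical axis, CPM, log scale) against its level in 8-cell embryo 1 (horizontal axis, CPM, log scale), with a dotted line at equal levels and members without a count in 8-cell embryo 1 left of the grey line, spread sideways. Colours show edgeR's calls, 31 higher, 2 lower, 20 not called and 27 not tested, and 1 member without a count in the later pair is set at the bottom.

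A few members that were lower at 9-10 cells held much of the member counts in 8-cell embryo 1. In sample numbers 23 to 25 of 8-cell embryo 1, 63.98% of the 422 member counts came from the 28 members with a 9-10 cell to 6-8 cell ratio of 0.5 or lower. F1269, F113 and F614, with 65, 55 and 49 counts, held 40.0% of the 422 between them, and the other 25 of the 28 held 23.9%. There were 8 members above both later lower-series embryos, F113, F426, F541, F614, F901, F1134, F1268 and F1390, and 7 of them belong to the 28. Across the higher-series embryos of 6-8 cells F113 had 9676, 1773, 6519, 2404, 387.7 and 3691 CPM, and it had 412.1 CPM in the 9-cell and 22.1 CPM in the 10-cell embryo. F614 had 8263, 1610, 2759, 4006, 634.4 and 812.0 CPM in the 6-8 cell embryos, all above its 225.7 and 77.5 CPM at 9 and 10 cells. For F113 the lowest of the 6, in 8-cell embryo 4, overlaps with the 9-cell value.

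Blastomeres of an embryo differed in which members they held. A member was called gathered in 1 library where that library had at least 10 counts of it and at least 4 times the median CPM of the embryo's other libraries, among libraries of at least 1000 counts. By this description, 17 of 80 members (21.3%) were gathered in the 7-cell embryo, 11 of 74 (14.9%) in the 9-cell, 10 of 76 (13.2%) in 12-cell embryo 2 and 21 of 63 (33.3%) in the 20-cell embryo. Non-members of at least 200 CPM gave 5.76%, 4.91%, 15.5% and 9.71% in the same 4 embryos. Members were not more often gathered than non-members in every embryo, as 12-cell embryo 2 and 8-cell embryo 2 (12.8% of members, 18.7% of non-members) show. Libraries of an embryo were not named by lineage in these embryos, so which cell they are is not known.

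In the 7-cell embryo 11 of the 17 gathered members were in cell r6, F113, F185, F426, F506, F541, F614, F707, F901, F1241, F1268 and F1454. F113 had 17690 CPM in r6, against 140.4 to 768.2 CPM in the other 6 libraries. F614 had 14545 CPM there, against 196.6 to 1255 CPM. All 11 belong to the 28 members with the lower 9-10 cell levels. This library also had the highest member share of its embryo, 34.3%, against 17.7% to 26.8% in the others. Its 12719 counts are near the lower end of the embryo's range of 7124 to 37250, and its features high at 1-3 cells held 9.70% of counts, against 5.16% to 7.90%.

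Cell r9 of the 9-cell embryo gave a similar list. It held 9 of the 11 gathered members, F42, F113, F185, F506, F541, F565, F1268, F1269 and F1437. F1269 had 53919 CPM in r9, against 5156 to 12066 CPM in the other 8 libraries. F185 had 11732 CPM in r9, against 385.2 to 1289 CPM. F113, F185, F506, F541 and F1268 are in both lists, 45.5% of the 7-cell list and 55.6% of the 9-cell list. Summed, these 5 rows held 5.40% of counts in r6 of the 7-cell embryo, against 0.24% to 0.53% in its other libraries, and 2.52% in r9 of the 9-cell embryo, against 0.08% to 0.32%. The 5 rows were picked because they are in both lists, so these sums are a description. In other embryos of 6-10 cells they held 0.77% to 5.24% of counts in the deep libraries of the 6-cell embryo, 1.02% to 3.52%, 0.77% to 1.996%, 0.36% to 0.50% and 0.88% to 1.25% in 8-cell embryos 2 to 5, and 0.07% to 0.37% in the 10-cell embryo. In 8-cell embryo 1 they held 0.99% to 1.75% in r1, r2 and r3 and 0.09% in r8. Every deep library of the 6-cell embryo and of 8-cell embryos 2, 3 and 5 was above the 6 lower libraries of the 7-cell embryo. The r9 library has 4006 counts, the fewest of its embryo, and its features high at 1-3 cells held 7.64% of counts, against 3.51% to 5.36%.

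Of the 8 members that were above both later embryos in 8-cell embryo 1, 6 are in the r6 list of the 7-cell embryo, 75% of those 8 and 54.5% of the 11. Both lists come mainly from the 28 members with the lower 9-10 cell levels, 7 of the 8 and all 11. The overlap is thus partly built in, and a link between the lists was not tested. Some of the 8 also rest on few counts, as F426, F901 and F1390 had 7, 7 and 6 in sample numbers 23 to 25. At later steps the 5 shared rows summed to 0% to 0.34% of counts in the deep libraries of 12-cell embryo 1, 0.30% to 0.81% in 14-cell embryo 1, 0.07% to 0.78% in 12-cell embryo 2 and 0.07% to 0.40% in the 20-cell embryo. The highest of these lie above the lower libraries of the 7- and 9-cell embryos.

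**Figure D4:**
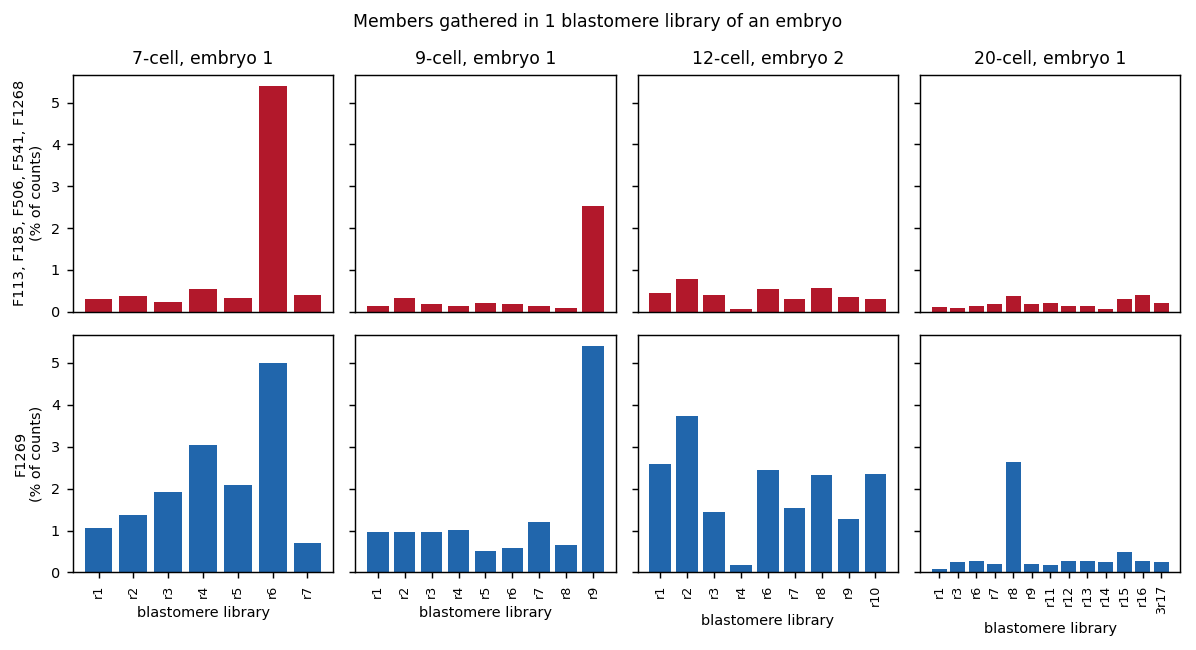
Share of counts (vertical axes, %) of F113, F185, F506, F541 and F1268 summed (upper panels) and of F1269 (lower panels) in each blastomere library of at least 1000 counts (horizontal axis) of the 7-cell embryo, the 9-cell embryo, 12-cell embryo 2 and the 20-cell embryo, each bar being 1 library. The 5 rows reach 5.40% in r6 of the 7-cell and 2.52% in r9 of the 9-cell embryo and stay at or under 0.78% in the other 2 embryos, where F1269 stands out in r8 of the 20-cell embryo.

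Cell r8 of the 20-cell embryo held 14 of the 21 members gathered there, and of these F901 is also in the r6 list of the 7-cell embryo and F1269 in the r9 list of the 9-cell embryo. The 14 were F41, F44, F102, F283, F461, F829, F830, F901, F907, F1133, F1153, F1180, F1269 and F1544. F1269 had 26377 CPM in r8, against 853.2 to 4764 CPM in the other 12 libraries. The summed embryos of 12-14 cells averaged 18196 ± 6475 CPM of it (SD, n = 3). F1133 had 18128 CPM, against 722.8 to 5490 CPM. F901 had 1528 CPM, against at most 116.5 CPM. In r8 the median member stood at 76.7% of its 6-10 cell level and 11 of 80 were down 3-fold or more, against 39.4% and 33 of 80 in the rest of the embryo. The library has 9819 counts, and its share from features high at 1-3 cells, 3.89%, lies within the 3.70% to 10.9% of the other 12.

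The converse held for cell r4 of 12-cell embryo 2. The median member stood at 3.24% of its 6-10 cell level there and 73 of 80 were down 3-fold or more, against 105.05% and 4 of 80 in the other libraries. F1269 had 1659 CPM in r4, against 12729 to 37313 CPM in the other 8. The library has 4220 counts. At these stages the labels name a cell by lineage in DP4 of 12-cell embryo 1 and P4 of the 14-cell embryo. DP4 of 12-cell embryo 1 had 14.5% of its 1176 counts from members (95% Wilson interval 12.6% to 16.7%), the lowest of the 4 deep libraries of that embryo, which reached 19.7%. Features high at 1-3 cells held 16.0% of the counts of DP4, against 5.12% to 6.45% in the other 3 deep libraries, and their part in the lower member share was not tested. P4 of the 14-cell embryo had 27 counts in all outside the dominant rows, 1 of them from a member (3.70%, Wilson interval 0.657% to 18.3%), too few to set it apart from the rest.

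F283, F541 and F1390 were gathered in 1 library in the most embryos, 5 each. In embryos with at least 20 counts of F1390, its 2 highest libraries held 88.2% to 100% of them, though others could have some. It had counts in 6 of 7 deep libraries of the 7-cell embryo, 4 of 6 of 8-cell embryo 2 and 3 of 4 of the 6-cell embryo. In 12-cell embryo 2 it had 33 counts, 31 in cell r1 and 2 in r9, and none in the other 7 libraries. Its 65 counts in the 9-cell embryo were 53 in r2 and 5 in r9, with counts in 4 of 9 libraries. Its 27 counts in the 10-cell embryo were 19 in r7 and 7 in r9, with counts in 3 of 10. In 8-cell embryo 2, r1 and r6 held 98.9% of its 380 counts. By 20 cells it was down to 2 counts, both in r8. F283 shared its top library with F1390 in 8-cell embryo 2 (r6, 9340 CPM by level) and in 12-cell embryo 2 (r1, 7099 CPM), while in the 7-cell embryo it was highest in r7 (5946 CPM) and F1390 in r5 (4071 CPM). Unlike F1390, F283 had counts in every deep library of the 7-cell embryo and of 12-cell embryo 2.

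The number of members detected in a library after 12 cells depended on the count total it was read at. Thinned to 1000 counts outside the dominant rows, which are not library depths, a library held on average 2.37 of the 80 members in 3-cell embryo 2, 49.7 in the 10-cell embryo, 49.3 in 12-cell embryo 2, 39.1 in the 20-cell embryo, 17.0 in the early gastrula and 12.6 in the late gastrula. Without thinning the means were 73.4 in the 10-cell embryo, 67.1 in 12-cell embryo 2, 55.5 in the 20-cell embryo, 34.3 in the early gastrula and 36.2 in the late gastrula, so the late gastrula is lower than the early one at 1000 counts and higher without thinning. At 1000 counts, non-members of at least 200 CPM gave 206.3 of 351 in the 10-cell, 184.8 in 12-cell embryo 2, 215.7 in the 20-cell, 197.0 in the early and 207.6 in the late gastrula. The member shares of the libraries were narrow in the gastrula, 1.77% to 4.23% over 33 early and 1.07% to 2.94% over 40 late libraries. No gastrula library had a member share near that of the 20-cell embryo, whose lowest deep library had 6.82%.

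Some members lie side by side in the table. Of the 80, 21 (26.3%) lie next to another member, in runs of F40 to F44, F232 to F233, F539 to F541, F829 to F831, F906 to F907, F1133 to F1134, F1268 to F1269 and F1334 to F1335. Of the 351 non-members of at least 200 CPM, 31 (8.83%) lie next to a member. No source used here says what the order of rows follows, so neighbours in the table may or may not be neighbours in the genome, and reads shared between near-identical copies cannot be told apart from separate rows that move together. Neighbours did not all share their timing. In the run of 5, F41 and F43 stood at 22.8% and 41.4% of their 6-10 cell levels in the 20-cell embryo and F40 and F44 at 107.6% and 113.2%.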

How the data were processed

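The values are raw counts, 1 whole number per feature and blastomere library, as the authors deposited them. Per the submitters' processing notes, the tools included CASAVA 1.8, Bowtie2 2.1.0 and HTSeq 0.5.4p3. Neither a build of the genome nor the thing counted (reads or molecular identifiers) is stated there. The copy used holds 1572 complete rows in 189 columns and ends inside a row with 130 fields, which was not used. Further rows were not analysed here, so column totals (14 to 44125 outside the dominant rows, median 5174) are not library depths.

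Columns were matched to samples by sample number, and libraries were summed to 20 embryos. Nothing states that embryos are independent cultures. The 2 unnamed 2-cell libraries were taken as 1 embryo by assumption. No pair of libraries was identical. A digit in front of the cell name in 1 library of the 20-cell embryo and 21 of the late gastrula is not explained by the labels. The members, groups of members and tests were chosen with earlier results of these data known. Tests used edgeR 4.0.16 (R 4.3.3; TMM scaling, filterByExpr, quasi-likelihood F test, Benjamini-Hochberg adjustment over all features tested at 0.05), checked on simulated counts, with DESeq2 as an alternative. The comparison of 20 with 12-14 cells used all 20 embryos in 6 groups, and that of 12-14 with 8 cells used the lower-series embryos. Thinned detection is the expected number at 1000 counts outside the dominant rows. Named members are the 10 highest at 6-10 cells, all called in either test and the 5 highest and 5 lowest 20-cell to 12-14 cell ratios. Others named stand apart in single libraries, lie at a threshold or neighbour another member and were chosen after their values were seen. Alternatives changed scaling, filter, tool, dominant rows, library minimum, depth, number series and embryos left out, and those without cell r4, cell r8, sample numbers 11 to 14 or sample numbers 23 to 25 were chosen after seeing the data. For the second test they are given as percentages of features tested, since the number tested differs. No marker list could be matched to the unnamed rows.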

Additional observations from a re-analysis of the deposited data

Results flagged for a closer look

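In 28 sets of samples the highest or lowest value was set against the rest by Dixon's criterion, which flags about 1 in 20 sets by chance, and 6 stood apart. F1534 had 16556 CPM in 8-cell embryo 2, and the other 7 embryos of 6-10 cells had 1843 to 8155 CPM. F1269 and F41 each had 39.1 CPM in 3-cell embryo 2 and 0 in the other 4 embryos of 1-3 cells, a difference of 1 count each. The members' share of counts was 10.9% in cell r7 of 8-cell embryo 4, against 17.0% to 21.2% in the other 6 libraries. It was 29.9% in cell r9 of the 9-cell embryo, against 14.4% to 20.4% in the other 8. It was 2.63% in cell r4 of 12-cell embryo 2, against 20.2% to 31.4% in the other 8 deep libraries. Results that rest on r9 and r4 are given beside these values in the report.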

How the results depend on the processing

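No paired analysis was possible because the 20-cell group and the lower-series 8-cell group hold 1 embryo each, so the groups compared share fewer than 2 replicate numbers. For 20 against 12-14 cells, 1 feature and 0 members passed the threshold. Features and lower members were 13 and 5 with no filter, 10 and 7 with DESeq2, 2 and 0 with only the 12-14 and 20-cell embryos in the fit, and 4 and 1 without cell r8. No feature passed with libraries of at least 2000 counts (76 at an unadjusted p under 0.05). With number series as a term, the comparison was that of the 20-cell embryo with 12-cell embryo 2 alone. Leaving out 1 embryo of 12-14 cells gave 0 to 0 features (62 to 90 unadjusted). DESeq2 was not run on these subsets. The members' median log2 change was negative in all settings run, from -1.78 with the series term to -0.94 without 12-cell embryo 2. For 12-14 against 8 cells, leaving out 1 of the later embryos gave 39.5% to 41.3% of the features tested in place of 61.6%, and no filter gave 26.7% of a longer list. Libraries of at least 2000 counts gave 27.2%, 3 members higher and 1 lower. Adding 12-cell embryo 2 gave 49 members higher. In that setting 60 members were tested, and 42.3% of all 355 features tested were called higher. DESeq2 and the fit without sample numbers 23 to 25 each gave 0 members lower in place of 2 (1 and 0 of them at an unadjusted p under 0.05). The causes were not tested. The median member's share of libraries with a count depends on the count total. At 1000 counts it was 72.04%, 69.6%, 52.3%, 10.4% and 7.88% in the 10-cell embryo, 12-cell embryo 2, the 20-cell embryo and the early and late gastrula, and without thinning it was 100%, 90%, 82.4%, 33.3% and 45%. At 2000 counts it was 90.01% in the 10-cell embryo. Leaving out 1 embryo of the rule gave 77 to 85 members, at least 73 of them among the 80. Levels under a floor of 260.0 CPM in 8-cell embryo 1 or 334.0 CPM in 12-cell embryo 1 could not be resolved.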
